A study of Mus musculus with 26 samples.

Results

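The genes described here are those of the cytosolic ribosomal proteins, taken as every row of the count matrix whose gene name is Rpl or Rps followed by a number and at most a short letter suffix. The rule used names only and no measured value, and it took 85 of the 56941 genes counted, 50 Rpl (large subunit) and 35 Rps (small subunit). Of these, 82 were abundant enough to be tested, among 15357 genes tested in all. The other 3 were Rpl39l, Rpl10l and Rps12l1. GENCODE M21 lists 79 of the 85 as protein-coding and the other 6 (Rps4l, Rps3a2, Rps3a3, Rpl32l, Rpl6l and Rps12l1) as processed pseudogenes, which are reverse-copied transcripts inserted in the genome. The name rule leaves out 8 genes of the same complex, such as Rplp0 and Rpsa, and these were followed as a separate list.

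RNA was sequenced from the left ventricle of 26 mice, each giving 1 library. Knockout mice (cKO, genotype aMHC-CreTg/0-Ppp2r2aL/L) carried floxed alleles of Ppp2r2a and a Cre transgene under the aMHC promoter, which is active in cardiomyocytes. Controls (Ctrl, genotype aMHC-Cre0/0-Ppp2r2aL/L) carried the same floxed alleles and no Cre, so that the groups differ in the transgene as well as in the gene it removes, and other cell types of the ventricle keep the gene. Mice with Cre alone are not analysed here. Each sex had 6 Ctrl and 7 cKO mice, aged 12 to 16 weeks, all after 2 weeks of saline from a minipump. The design text gives C57BL6/N for the floxed line and FVB for the Cre line, so the background is mixed, although the strain label of the samples reads C57BL/6N. The targeted gene, which codes for the PP2A subunit B55α, averaged 37.4 ± 10.2 CPM (read counts scaled to a common library total; SD) in Ctrl and 14.1 ± 1.81 in cKO males. In females the averages were 40.4 ± 3.60 (Ctrl) and 13.4 ± 2.07 (cKO). No cKO mouse reached the lowest Ctrl mouse.

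A cytosolic ribosome is built from a small subunit, which reads the mRNA, and a large subunit, which forms peptide bonds, and each ribosomal protein is needed in about equal number. Their mRNAs carry a run of pyrimidines at the 5′ end, the terminal oligopyrimidine tract, through which mTORC1 signalling and the protein LARP1 adjust their translation and stability together. In the heart, ribosome number is known to follow growth, and Rpl3l is a paralog of Rpl3 made in striated muscle.

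Start-site sequences are shown because a pyrimidine tract is known for mRNAs of this family. The listed starts were not measured in these hearts and need not be the ones used there. RefSeq start sites (GRCm38.p6) were available for 61 of the 85 members. The 7 windows below run from 30 bases before to 30 bases after the first listed start, with runs of at least 6 C or T in capitals. They are 4 of the genes that differed between female and male cKO mice (Rpl14 at chr9:120571487-120571546, Rpl7a at chr2:26910777-26910836, Rps16 at chr7:28350659-28350718 and Rps21 at chr2:180257349-180257408, all on the plus strand) and 3 chromosome 17 genes described further on (Rps2 at chr17:24720033-24720092 and Rpl3l at chr17:24727796-24727855 on the plus strand, and Rps18 at chr17:33955636-33955695 on the minus strand).
Rpl14: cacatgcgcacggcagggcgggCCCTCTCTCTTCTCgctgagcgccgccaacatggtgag
Rpl7a: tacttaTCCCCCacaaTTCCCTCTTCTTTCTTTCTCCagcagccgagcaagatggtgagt
Rps16: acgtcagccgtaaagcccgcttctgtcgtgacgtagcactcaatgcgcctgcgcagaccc
Rps21: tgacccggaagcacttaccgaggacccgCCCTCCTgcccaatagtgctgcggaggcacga
Rps2: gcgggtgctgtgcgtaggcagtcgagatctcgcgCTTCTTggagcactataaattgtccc
Rps18: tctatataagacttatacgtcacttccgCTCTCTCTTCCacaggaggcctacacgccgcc
Rpl3l: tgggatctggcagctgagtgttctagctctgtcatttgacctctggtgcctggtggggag

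The windows of Rpl14, Rpl7a and Rps18 hold a long pyrimidine run at or near the start, and those of Rps16 and Rpl3l hold none of 6 bases. That of Rps21 holds a shorter run across the listed start, and that of Rps2 a shorter one after it. A start at C followed by 4 pyrimidines was listed for 13 of the 61 members (21.3%) and for 813 of all 27025 genes in the table (3.01%). In promoters of 250 bases before to 50 after the start, searched on both strands, CTCTTTC was found in 29.5% of members and 9.28% of all genes, and CCGGAAG in 39.3% and 9.93%. AAGATGGCG, whose first 3 bases can be the last 3 of CCGGAAG, was found in 6.56% and 1.64%. These are matches of letters and not measured sites.

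The 85 genes took between 1.29% and 2.02% of the counts of a library. In males the share averaged 1.54 ± 0.160% (Ctrl; SD, n = 6) and 1.44 ± 0.0764% (cKO, n = 7), and in females 1.59 ± 0.129% (Ctrl, n = 6) and 1.67 ± 0.176% (cKO, n = 7). Large and small subunit genes gave the same order of groups, with Rpl at 0.894%, 0.831%, 0.921% and 0.967% and Rps at 0.644%, 0.604%, 0.670% and 0.706%. The ranges of all 4 groups overlapped. Female cKO mouse 2 was highest (2.02%), followed by female Ctrl mouse 2 (1.83%), and male Ctrl mouse 2 was lowest (1.29%).

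**Figure D1:**
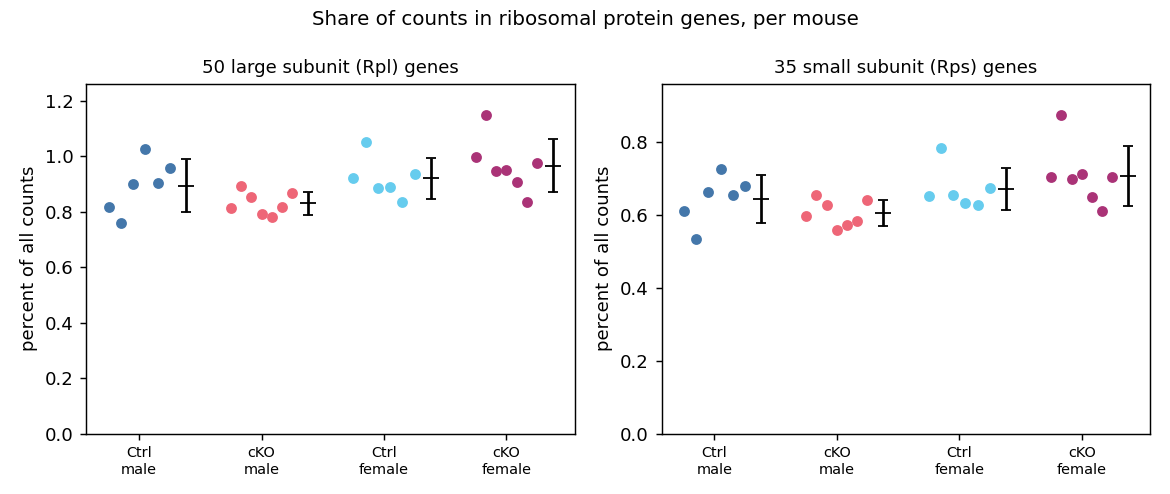
Percent of all counts that fell in the 50 Rpl genes (left) and the 35 Rps genes (right), 1 point per mouse, with the mean and SD of each group as a black bar. Male cKO mice lie closest together, and female cKO mouse 2 is the highest point in both panels.

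Total counts ran from 14403102 to 30867399, and the library of female cKO mouse 2 was the shallowest. The mitochondrially encoded genes took 13.8% to 19.2% of counts. Summed over 6 markers, cardiomyocyte mRNA ranged from 57811 to 62168 CPM in Ctrl males, from 52271 to 59131 in cKO males, from 59896 to 69115 in Ctrl females and from 57506 to 65572 in cKO females. The atrial markers Myl7 and Sln were at or near 0 in every mouse (at most 0.124 and 0.139 CPM). In bulk tissue, fewer cells of a type and less RNA per cell cannot be told apart. Sums for the other cell types are in the closing section.

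Levels between genes were compared as CPM per kilobase of coding sequence, for the 77 tested members with an annotated coding sequence. The highest were Rpl41, the shortest ribosomal protein, at 3017, Rps29 at 1533 and Rps24 at 962. The lowest were Rpl22l1 at 43.3, Rpl7l1 at 62.1 and Rpl29 at 88.7. Coding length leaves out untranslated regions, which make up much of a short mRNA, so the value of Rpl41 in particular is set by its 75 coding bases. Between these ends lay core proteins such as Rps15 (729), Rps9 (612), Rpl13 (544), Rps3 (433) and Rpl4 (401), the last lining the exit tunnel.

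Knockout against control in males gave slightly lower values for nearly the whole family, with no member past the threshold. Of 82 members, 77 had a log2 fold change below 0 (49.7% of all genes did), with a median of -0.13 against 0.00 for all genes. None was called at an adjusted p under 0.05 by edgeR's quasi-likelihood test, nor by DESeq2, while 0.443% of all genes were called. At an unadjusted p under 0.05 there were 19 members, all lower, and 13.2% of all genes. Members moved together from mouse to mouse (median r of 0.79 between pairs, described further on). Counts of members, here and in the contrasts below, are therefore not counts of independent results.

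Rpl9, a large subunit protein near the GTPase centre, had the smallest p among members. It ranged from 223 to 259 CPM (median 243) in Ctrl males and from 202 to 227 (median 208) in cKO males, with an overlap of the groups. Its log2 fold change was -0.21 ± 0.07 (SE), with an adjusted p of 0.159 by edgeR. Rpl7 (-0.18) and Rpl7l1 (-0.15) followed, with adjusted p of 0.202 and 0.205. Rpl14 was the only member whose groups did not overlap, at 168 to 188 CPM in Ctrl males and 146 to 165 in cKO males, with an adjusted p of 0.211. Groups did not overlap, with cKO lower, for 0.873% of all genes. No member had cKO males wholly above Ctrl males, as 0.41% of all genes did.

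The 5 members above 0 in males were led by Rpl32l (0.49, adjusted p 0.465 by edgeR), Rps2 (0.20, adjusted p 0.832) and Rps18 (0.06, adjusted p 0.926). Rpl32l is a processed pseudogene with 8 to 28 counts per library. Male cKO mice also had the lowest cardiomyocyte marker sum (55793 ± 2787 CPM, against 60632 ± 1669 in Ctrl males). Among its markers Ryr2 alone went the other way, averaging 1231 CPM in cKO and 1185 in Ctrl males. The part of this sum in the result was not tested.

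Knockout against control in females gave no call among members (0 by edgeR, 0 by DESeq2, and 0 at an unadjusted p under 0.05). Of all genes, 0.0326% were called and 5.15% had an unadjusted p under 0.05. The median of the 82 members was 0.03, with 63 above 0 (51.1% of all genes were). Rpl29 (0.71 ± 0.41 SE), Rps4l (0.61 ± 0.43) and Rps21 (0.12 ± 0.09) were the 3 higher members of smallest p, and Rpl7l1 (-0.07), Rpl3l (-0.09) and Rpl24 (-0.05) the 3 lower, all with adjusted p of at least 0.955 by edgeR. No member had groups without overlap, against 0.117% (cKO higher) and 0.0521% (cKO lower) of all genes. Without female cKO mouse 2 the median became -0.03, and Rpl29, Rps4l and Rps21 had 0.38, 0.37 and 0.037.

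The genotype effect in females minus that in males was above 0 for 79 of 82 members, against 51.6% of all genes, with a median of 0.16 on the log2 scale (0.01 for all genes). Without female cKO mouse 2 that median was 0.099. No member was called by edgeR or DESeq2, and edgeR called no gene at all (0%). At an unadjusted p under 0.05 there were 7 members and 3.96% of all genes. The smallest p among members were those of Rps21 (0.33 ± 0.13 SE), Rpl9 (0.26 ± 0.10) and Rpl8 (0.17 ± 0.07), each with an adjusted p of 0.999 by edgeR. The 3 values below 0 were those of Rpl32l (-0.39), Rps2 (-0.22) and Rps18 (-0.0047). A sex difference of the genotype effect was therefore not detectable for single ribosomal protein genes in these 26 mice.

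Averaged over both sexes, the genotype effect was below 0 for 74 of 82 members and for 48.4% of all genes, with a median of -0.05. That median was -0.021 without female Ctrl mouse 2 and -0.078 without female cKO mouse 2. No member was called by edgeR or DESeq2 (1.33% of all genes were by edgeR). Rpl7l1, a diverged relative of Rpl7, was alone among members under an unadjusted p of 0.05 (-0.11 ± 0.04 SE, adjusted p 0.157 by edgeR), where 14.1% of all genes were. Rpl7 (-0.09) and Rps13 (-0.10) followed among the lower ones, and Rpl32l (0.30), Rpl35a (0.18) and Rpl29 (0.27) led the higher ones. The value of Rpl29 was 0.065 without male cKO mouse 3 and 0.49 without male Ctrl mouse 6, and that of Rpl35a ran from 0.12 (without male Ctrl mouse 2) to 0.28 (without female Ctrl mouse 1).

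**Figure D2:**
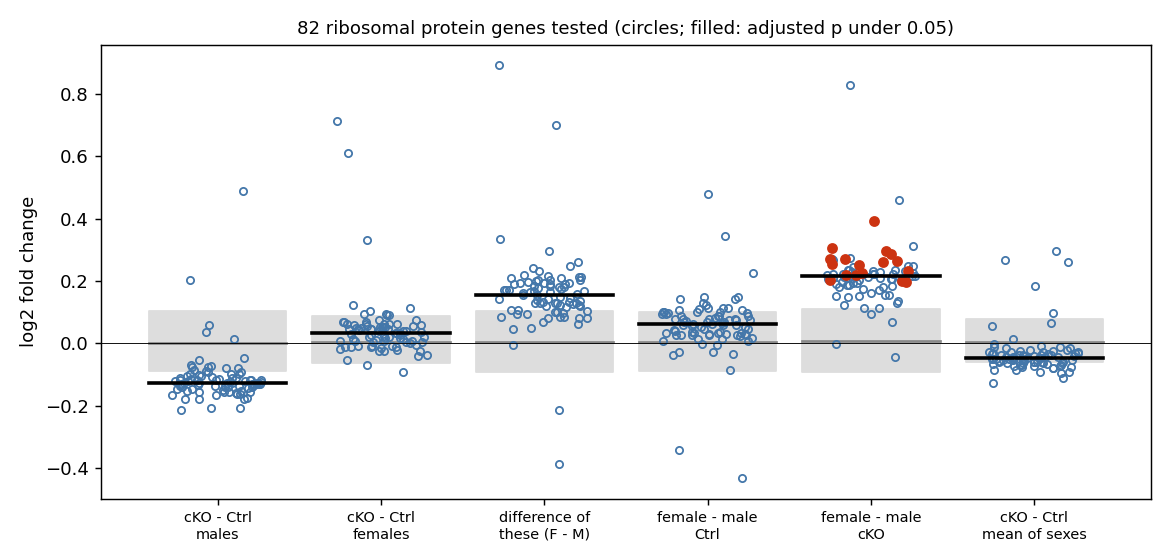
Log2 fold changes of the 82 tested ribosomal protein genes (circles) in 6 contrasts, with the members' median as a black line, the median of all genes as a grey line and the middle 50% of all genes as a grey box. Filled red circles are the 17 members past an adjusted p of 0.05, all in female against male cKO mice, where the median was 0.21.

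Between control females and control males, 73 of 82 members were above 0 (51.1% of all genes), with a median of 0.06. None was called by edgeR or DESeq2, against 0.638% of all genes by edgeR, and 4 members had an unadjusted p under 0.05 against 12.1% of all genes. Rpl7a (0.15 ± 0.06 SE, adjusted p 0.245), Rpl24 (0.14 ± 0.07, adjusted p 0.402) and Rpl27 (0.12 ± 0.06, adjusted p 0.397) had the smallest p. Rpl29 (-0.43), Rpl35a (-0.34) and Rpl7l1 (-0.08) were the lower ones of smallest p. No member had groups without overlap, against 0.443% (females higher) and 0.58% (females lower) of all genes. Without female Ctrl mouse 2 the members' median was 0.02.

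Among cKO mice, 17 ribosomal protein mRNAs were higher in females than in males. In this comparison edgeR called 17 of 82 members (20.7%), all higher in females, while 2.7% of all genes were called and 1.43% were called higher in females. These were 9 Rpl genes and 8 Rps genes. An unadjusted p under 0.05 was reached by 68 of 82, all higher in females, and by 17.3% of all genes. The median of the 82 was 0.21 (0.01 for all genes), and 80 were above 0, against 51.9% of all genes. Since the members move together between mice, these counts can reflect 1 shared shift and are not independent. Genotype is the same in both groups here, and the difference is one of sex within cKO mice; as given above, it was not shown to differ from that in Ctrl mice.

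Among the large subunit genes called, Rpl8, whose protein sits at the peptidyl transferase centre, had the smallest p. It ranged from 281 to 303 CPM (median 285) in cKO males and from 317 to 404 (median 341) in cKO females. Every cKO female was above every cKO male. Ctrl males lay between 284 and 332 (median 321) and Ctrl females between 320.2 and 367 (median 337), overlapping each other. The log2 fold change was 0.27 ± 0.05 (SE), with an adjusted p of 0.00293 by edgeR. Rpl8 also had the smallest spread of any tested member (pooled SD 0.085 on the log2 scale).

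Rpl14 ranged from 146 to 165 CPM (median 161) in cKO males and from 170 to 234 (median 190) in cKO females, again without overlap. Ctrl females ranged from 174 to 221 (median 183). Its log2 fold change was 0.27 ± 0.06 (adjusted p 0.0140 by edgeR), and the pyrimidine run at its start is printed above. Rpl36, a small protein of the large subunit, ranged from 179 to 205 CPM in cKO males and from 209 to 305 in cKO females, with 0.31 ± 0.07 (adjusted p 0.0163). Rpl9, lower in cKO than in Ctrl males without passing, ranged from 202 to 227 CPM in cKO males and from 207 to 325 in cKO females. Those ranges overlapped, and the log2 fold change was 0.29 ± 0.07 (adjusted p 0.0257).

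Rpl5 binds 5S rRNA, and together with Rpl11 can restrain Mdm2. It ranged from 250.8 to 286 CPM in cKO males and from 282 to 377 in cKO females (0.23 ± 0.06, adjusted p 0.0320 by edgeR). The remaining large subunit genes called were Rpl7a (0.20), Rpl13 (0.22), Rpl10a, a protein of the L1 stalk (0.20), and Rpl31, near the exit of the tunnel (0.25), with adjusted p from 0.0345 to 0.0461. Rpl7a ranged from 296 to 340.5 CPM in cKO males and from 342 to 406 in cKO females, and Rpl13 from 291 to 325 and from 328 to 440, both without overlap.

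Among the small subunit genes, Rps21 had the largest log2 fold change of any called member, 0.39 ± 0.09 (adjusted p 0.0152 by edgeR). It ranged from 95.9 to 113 CPM (median 102) in cKO males and from 103 to 184 (median 131) in cKO females, with an overlap. In Ctrl mice it ranged from 104 to 132 in males and from 112 to 138 in females. Rps3a1, which encodes the mouse protein at the mRNA exit side, ranged from 303 to 330 CPM in cKO males and from 329 to 458 in cKO females, with a marginal overlap (0.25 ± 0.06, adjusted p 0.0324). Rps16, whose tail reaches the P site, ranged from 139 to 165 CPM and from 159 to 223 (0.26 ± 0.07, adjusted p 0.0353).

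Rps20 (0.30), Rps9 at the mRNA entry channel (0.22), Rps28 (0.26) and Rps15 (0.20) were also called, with adjusted p from 0.0358 to 0.0461 by edgeR. Rps9 ranged from 316 to 331 CPM in cKO males and from 333 to 455 in cKO females, without overlap. Of the 82 members, 7 had cKO females wholly above cKO males (Rpl7a, Rpl8, Rpl13, Rpl14, Rpl36, Rpl41 and Rps9), and none the reverse. Over all genes, 0.567% did so with females higher and 0.527% with females lower. Rpl41 was outside the calls (0.22, adjusted p 0.0532).

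The members with values below 0 were Rpl35a (-0.04, adjusted p 0.958 by edgeR) and Rpl7l1 (-0.0012, adjusted p 0.994), and the sign of both changed under other settings. The 4 members on the X chromosome, Rpl10 (0.21, adjusted p 0.0947), Rpl36a (0.25, 0.0691), Rpl39 (0.27, 0.107) and Rps4x (0.20, 0.0736), lay close to the median of the family and did not pass.

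**Figure D3:**
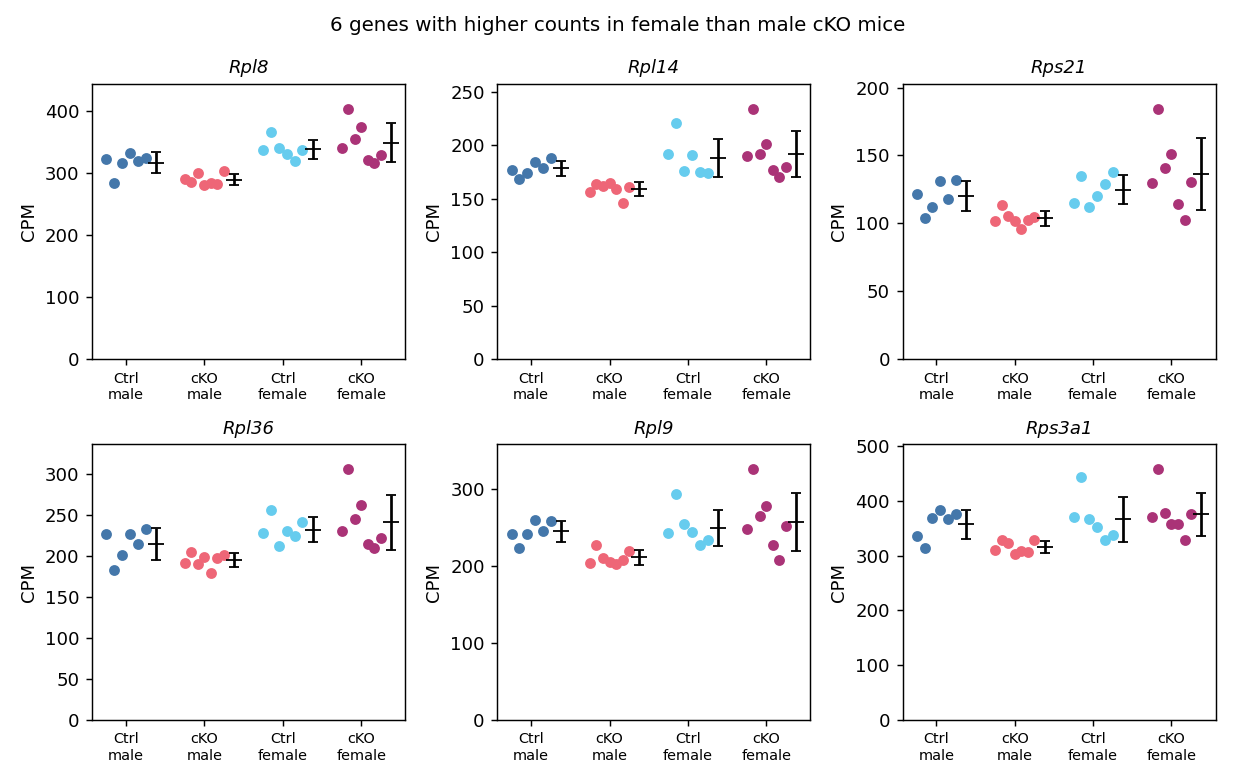
CPM of 6 called genes in each mouse, by group, with the mean and SD as a black bar. Male cKO mice sit lowest and closest together, and for Rpl8 and Rpl14 every female cKO mouse lies above every male cKO mouse.

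The number of calls depended strongly on single mice. It was 4 without male cKO mouse 1, 6 without mouse 4, 5 without mouse 5, 5 without mouse 6 and 8 without mouse 7 of that group. It was 4 without female cKO mouse 2, 6 without mouse 3, 4 without mouse 4 and 9 without mouse 7, rising to 40 without mouse 6, and it was 32 without female Ctrl mouse 2. Calls over all genes moved too, to 1.26% without male cKO mouse 1, 1.46% without female cKO mouse 2, 1.06% without female cKO mouse 4 and 3.31% without female Ctrl mouse 2, but were 2.80% without female cKO mouse 6. Without the female mice numbered 2 of both genotypes, which had the highest shares, 8 were called and the median was 0.16. DESeq2 called 34 members and included the 17. The members' median stayed between 0.16 (without female cKO mouse 2) and 0.25 (without female cKO mouse 6). Rpl8, Rpl14 and Rps21 were called with each of the 26 mice left out and in 12 of 12 other settings.

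Measures of the mice differed along with this result. The cardiomyocyte marker sum was 55793 ± 2787 CPM in cKO males and 61990 ± 3200 in cKO females (SD, n = 7 each), and total counts were 22185980 ± 2875044 and 18260011 ± 2766239. Of the cardiomyocyte markers summed, Myh6 had the highest mean. Ryr2 alone went the other way, averaging 1231 CPM in cKO males and 1097 in cKO females. The mitochondrial share was 18.3 ± 0.830% and 16.7 ± 1.53%. The part of these in the result was not tested. With mitochondrially encoded genes left out of the scaling, 15 members and 2.77% of all genes were called.

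Genes that work with the ribosomal proteins were examined in the same contrast, where 2.7% of all genes were called, from lists chosen with earlier results known. Of the 8 genes of the ribosome outside the name rule, 4 were called higher in cKO females: Rplp0 (0.22), Rplp1 (0.28) and Rplp2 (0.24), which form the stalk, and Rpsa (0.26). The list's median was 0.20. Of 20 elongation factors and other genes with pyrimidine-tract mRNAs, 2 were called, both higher, Eef1d (0.20) and Hnrnpa1 (0.28), with a median of 0.08. Of 42 ribosome biogenesis genes, 1 was called lower, Tsr1 (-0.26), a factor of small subunit maturation, with a median of 0.03. That is 2.38% of the list, near the share of all genes. Of 26 genes of the mTORC1 branch and other regulators of these mRNAs, 0 were called by edgeR (5 had an unadjusted p under 0.05, as did 17.3% of all genes), with a median of 0.00. In the other 5 contrasts, no gene of these lists was called.

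The members moved together from mouse to mouse. The correlation of log2 CPM deviations from the group mean, over 26 mice, had a median of 0.79 over the 3321 pairs of tested members and of -0.0010 over pairs of all genes. The members share the library and its depth, so this is a description. The median was 0.77 within Rpl, 0.81 within Rps and 0.79 between them, and 0.63 without the female mice numbered 2. Of the 50 genes whose deviations followed Rpl8 most closely, 39 were other members, led by Rps10 (r = 0.93), Rpl18 (0.93) and Rpl13 (0.90).

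Within groups, members differed between mice about as much as genes of like abundance. The median pooled SD of log2 CPM was 0.13 for members, 0.19 for all genes and 0.13 for genes of like abundance. By group, the median SD of members was 0.13 in Ctrl males, 0.07 in cKO males, 0.13 in Ctrl females and 0.17 in cKO females, against 0.16 to 0.19 for all genes. Values by group for genes of like abundance are not given. The narrow spread of cKO males is that of the group in which the family was lowest. After Rpl8 (0.085), the most even members were Rpl7a (0.092) and Rpl4 (0.095).

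A few members departed from this pattern. Rps4l (pooled SD 0.78), Rpl29 (0.67) and Rps2 (0.55) had the largest spread, followed by Rpl35a (0.50), Rpl32l (0.44) and Rps18 (0.32). For the well-counted ones this far exceeded counting noise, which for Rps2 was 0.017 on the same scale.

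Rps2, which lines the mRNA entry channel, took 2 separate levels. It lay between 191 and 250 CPM in 12 mice and between 378 and 532 in 14, with none in between. Both levels occurred in every group, the upper one in 2 of 6 Ctrl males, 5 of 7 cKO males, 3 of 6 Ctrl females and 4 of 7 cKO females. Neither genotype nor sex gave a call for Rps2. Rps2-ps10, a pseudogene on chromosome 18 that shares 63.9% of the 50-base words of the Rps2 transcript, ran the other way. It was at 92.1 CPM in male Ctrl mouse 1, where Rps2 was at 432, and at 222 in male Ctrl mouse 4, where Rps2 was at 206. Over 26 mice the deviations of both had r = -0.93. Summed with its 3 detected copies, the Rps2 signal had a pooled SD of 0.25 in place of 0.55. How the authors' counting treated reads that fit several places is not given in the sources used here, so the level of Rps2 is uncertain.

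Rps18, in the head of the small subunit, and Rpl3l followed Rps2. Their deviations had r = 0.88 (Rps18) and 0.83 (Rpl3l) with Rps2, and 0.80 with each other. All 3 genes lie on chromosome 17. The other 5 tested members of that chromosome had r with Rps2 between -0.03 (Rps28) and 0.43 (Rps10). Rps18 ranged from 87.6 CPM in male Ctrl mouse 2 to 198 in female cKO mouse 2, and 86.7% of its 50-base words occur in other genes. Rpl3l shares no 50-base word with any other gene, unlike Rps2 and Rps18. The part of the mixed background in these values was not tested.

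Rpl29 was at 27.1 to 35.8 CPM in 22 mice and at 96.1 to 120 CPM in 4, which were male Ctrl mouse 6, male cKO mouse 3 and female cKO mice 2 and 3. No mouse lay between. Without male Ctrl mouse 6 the difference of -0.43 between Ctrl females and males became 0.01. Rpl35a, a large subunit gene known from Diamond-Blackfan anaemia, lay between 39.0 and 65.2 CPM in 14 mice and between 79.3 and 103 in 12. The upper range held 3 of 6 Ctrl males, 5 of 7 cKO males, 1 of 6 Ctrl females and 3 of 7 cKO females. Rps4l, a transcribed pseudogene of Rps4x, ranged from 4.23 to 16.996 CPM in 23 mice and from 21.6 to 26.6 in female cKO mice 2, 5 and 6. Rpl29, Rpl35a and Rps4l did not follow each other (r between -0.22 and 0.14).

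**Figure D4:**
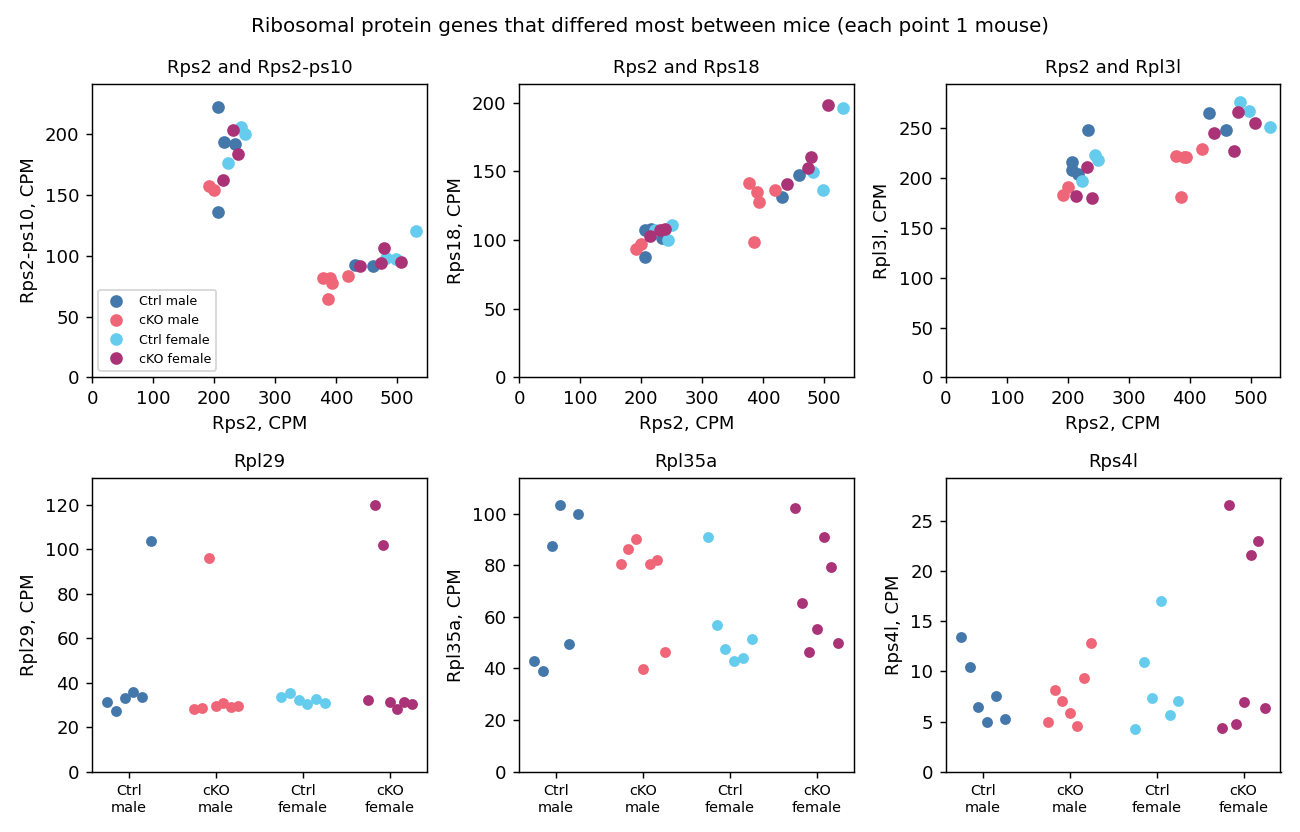
Each point is 1 mouse, in CPM. The upper panels plot Rps2 against its pseudogene Rps2-ps10 and against Rps18 and Rpl3l, and the lower panels show Rpl29, Rpl35a and Rps4l by group. Rps2 falls into 191 to 250 and 378 to 532 CPM, and 4 mice have Rpl29 near 100 CPM.

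Paralogs differed in level and in how they varied. Rpl3 forms part of the peptidyl transferase region, and Rpl3l is its striated muscle paralog. Their coding sequences were 74.1% identical over 1207 aligned bases. The first 120 bases are shown from the start codon, from GENCODE M21, with the 31 bases that differ in capitals.
Rpl3: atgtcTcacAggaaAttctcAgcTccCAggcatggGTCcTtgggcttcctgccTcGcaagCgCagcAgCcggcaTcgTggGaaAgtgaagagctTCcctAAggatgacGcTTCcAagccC
Rpl3l: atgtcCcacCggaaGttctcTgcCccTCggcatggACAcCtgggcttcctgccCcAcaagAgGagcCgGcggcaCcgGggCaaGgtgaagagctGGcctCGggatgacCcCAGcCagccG

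Per kilobase of coding sequence, Rpl3l was above Rpl3 in every group, as the plot of paralog pairs shows. Of the 50-base words of Rpl3, 85.6% occur in other genes, all pseudogenes, and of those of Rpl3l 0%, so the counting of multiply placed reads can bear on this order and its part was not tested. Rpl3 was at 100.5 ± 14.1 in Ctrl males, 93.4 ± 14.7 in cKO males, 111 ± 20.3 in Ctrl females and 116 ± 11.8 in cKO females (SD, n = 6, 7, 6 and 7). Rpl3l was at 190 ± 20.8, 170 ± 17.03, 196 ± 25.1 and 184 ± 28.1 in the same order. Their deviations ran in opposite directions over 26 mice (r = -0.61, the lowest of the 3321 pairs of members). Each also followed genes of its own chromosome. Of the 50 genes of largest absolute correlation with Rpl3l, 31 lay on chromosome 17, where 4.86% of tested genes lie. For Rpl3 it was 9 of 50 on chromosome 15 (3.84%). Whether the 2 paralogs depend on each other was not tested. Neither was among the calls given above. Between female and male cKO mice, Rpl3 had a log2 fold change of 0.31 ± 0.10 (adjusted p 0.105 by edgeR) and Rpl3l of 0.11 ± 0.09 (adjusted p 0.580).

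In the other pairs the gene without the suffix was the more abundant. Rpl22, an RNA-binding protein of the large subunit, averaged 346 per coding kilobase and Rpl22l1 43.3 (70.2% identity). Rpl7 averaged 398 and Rpl7l1 62.1 (57.8%), and Rps27 averaged 578 and Rps27l, a p53-responsive paralog, 135 (76.2%). Rpl39 averaged 77.3 CPM, and Rpl39l, abundant in testis, had between 0 and 8 counts per library. Rpl10 averaged 294 CPM, and Rpl10l, another testis gene, had 0 counts in all 26 libraries. A count of 0 allows up to 0.208 CPM in the shallowest library. Rps3a1 averaged 353 CPM, and the pseudogene copies Rps3a2 and Rps3a3 averaged 3.66 and 10.8. No second member of a pair was called in any contrast.

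**Figure D5:**
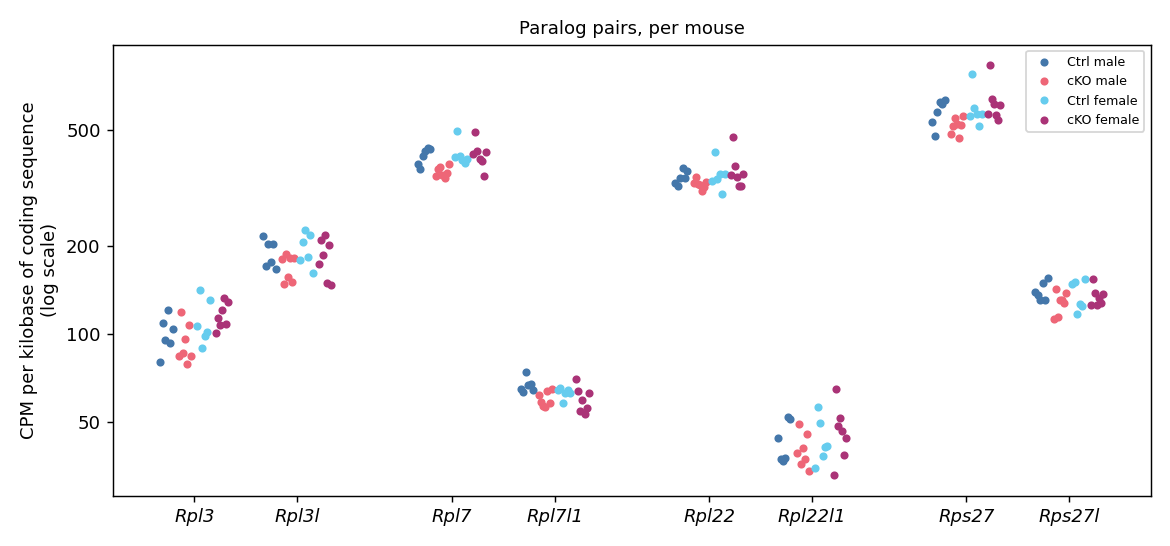
CPM per kilobase of coding sequence for 4 paralog pairs, 1 point per mouse, coloured by group, on a log scale. Rpl3l lies above Rpl3, whereas Rpl7l1, Rpl22l1 and Rps27l lie below their partners.

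Many members have near-identical copies elsewhere in the genome, which bears on every count given here. A median of 44.8% of the 50-base words of a tested member's transcript occurred in other GENCODE M21 genes, mostly pseudogenes, and the share was at least 50% for 35 of 82. It was 0% for Rpl3l, 6.49% for Rpl8, 49.3% for Rpl14 and 93.3% for Rpl9. Between female and male cKO mice, the 47 members under 50% had a median log2 fold change of 0.22 and the other 35 of 0.21. Over the 82 members the shared part and the pooled SD had Spearman's rho of 0.05, given as a description. The words were taken from whole annotated transcripts, which for several members were far too long, and this can lower their shared part. Rps15a had 5130 words with 6.28% shared, and Rps20 had 3657 with 7.44% shared. The median share, the split at 50% and the rho carry this limit, and its size was not tested.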

How the data were processed

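The matrix the authors deposited holds raw read counts of 26 libraries, as whole numbers. Per the submitters' processing notes, FastQC 0.74, cutadapt 4.6, STAR 2.7.11a and HTSeq were used with GRCm39. The annotation, use of strand and handling of multiply placed reads are not given in the sources used here, so genes with close copies are uncertain. RNA integrity numbers were at least 7.7, per the labels' protocols.

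Counts were fitted with edgeR 4.0.16 in R 4.3.3 (filterByExpr with minimum count 10, TMM, robust quasi-likelihood F tests, 4 group means, 26 mice). Benjamini-Hochberg adjustment ran over the 15357 genes tested, and a call is an adjusted p under 0.05. P-values set each difference between groups against the spread between these mice. Each SE follows from the fold change and its F. CPM used TMM-scaled totals, and log2 CPM a prior count of 2. Shares and marker sums used raw totals. Total counts were 14403102 to 30867399, so 3 counts corresponded to 0.0972 to 0.208 CPM. This floor covers counting error only. Each library is labelled as a separate mouse, and none of the 72 pairs within a group agreed within sampling noise (chi-square per degree of freedom at least 7.34). Chromosomes, coding lengths and transcripts came from GENCODE M21 by gene ID. Transcript lengths had been planned, but annotated isoforms of several members were far too long, and coding lengths were used. Simulated counts tested the fit, with genes drawn independently and changes larger than those of the called members. They therefore do not bear on calls of small changes in genes that vary together.

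Genes named are the called members, the 3 higher and 3 lower of smallest p per contrast, the extremes of spread and level, and the paralog pairs. Further names were picked with values in view. Of the called genes, 1 is not reported by name here. The members and lists were chosen with earlier results of these data known. Alternatives were other scalings, filters and fits, DESeq2 1.42.0, the replicate number as a block, a length and GC offset, and each mouse left out.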

Additional observations from a re-analysis of the deposited data

Results flagged for a closer look

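Each value below is a gap ratio: the distance of the highest or lowest mouse from the next one, divided by the range of its group. It was computed for 43 named genes and the share of counts in 4 groups, 176 tests, of which 26 passed the 95% limit of Dixon's test. Chance gives about 1 in 20, and the genes vary together, so the tests are not independent.

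Female cKO mouse 2 stood above its group in 12 of these: Rpl10a (0.688), Rpl13 (0.586), Rpl22 (0.632), Rpl36a (0.661), Rpl39 (0.642), Rpl5 (0.681), Rps16 (0.689), Rps27 (0.668), Rps27l (0.575), Rps28 (0.590), Rps29 (0.576) and Rps3a1 (0.623). Its Rpl5 was at 377 CPM and the next mouse at 313. Female Ctrl mouse 2 stood above its group for Rpl10 (0.689), Rpl4 (0.728), Rpl7 (0.795), Rps24 (0.724), Rps27 (0.693) and Rps3a1 (0.635). Its Rpl7 was at 403 CPM and the next mouse at 331.

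Rpl29 was far above the rest in male Ctrl mouse 6 (0.885; 103 CPM, next 35.8) and in male cKO mouse 3 (0.960; 96.1 CPM, next 30.9). Rpl35a was highest in female Ctrl mouse 1 (0.708; 90.9 CPM, next 57.0). The other values were Rpl24 in male Ctrl mouse 3 (0.647, highest), Rpl27 in male cKO mouse 7 (0.697, highest), Rpl10 in male cKO mouse 5 (0.606, lowest), Rpl7l1 in female Ctrl mouse 3 (0.667, lowest) and Rpl8 in male Ctrl mouse 2 (0.676, lowest).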

How the results depend on the processing

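Between female and male cKO mice, the count of 17 calls (2.7% of all genes called) became 34 with the DESeq2 Wald test (4.604%), 9 with no filter on low counts (0.837%), 10 with only the groups compared in the fit (2.28%), and 9 with an offset from transcript length and GC content (1.90%). Without the female mice numbered 2, chosen after seeing the data, it was 8 (2.02%), and with the offset plus the replicate block, also chosen then, 8 (1.26%). With each mouse left out in turn it ranged from 4 to 40. The replicate block gave 13 calls (2.35%), among them Rpl3 (0.33, adjusted p 0.0490 by edgeR), which is outside the 17. Correlations of same-numbered mice averaged 0.12 between female Ctrl and cKO mice (3 of 6 over 0.1, the highest 0.40), against -0.02 for other female pairs. Between male ones they averaged -0.03 (0 of 6 over 0.1), against 0.004 for other pairs. The labels give no pairing or batch, and these values do not settle whether the number marks shared handling of female mice. In males, Rpl9 was the 1 member called without the female mice numbered 2 (-0.21, adjusted p 0.0483). The members' median kept its sign in all 26 omissions except in cKO against Ctrl females (-0.03 to 0.08). Some signs of uncalled members changed. Rps18 in the difference between the sexes became 0.0081 with the block, 0.032 without the female mice numbered 2 and ranged from -0.11 to 0.14 over single omissions, and in males from -0.0078 to 0.14. Rpl7l1 between cKO sexes was 0.0023 with a mean of at least 5 CPM, 0.0039 with the offset, 0.0027 with the offset and block, and -0.043 to 0.026 over omissions. Rpl35a there ranged from -0.16 to 0.033, Rpl24 between female genotypes from -0.093 to 0.00023, and Rpl29 between Ctrl sexes from -0.54 to 0.013. The cause of these changes was not tested.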

Other observations

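The genes whose deviations followed the most variable members were often on the same chromosome. For each, the 50 tested genes of largest absolute correlation over 26 mice were taken. For Rps2, 37 of 50 lay on chromosome 17, where 4.86% of tested genes lie, and for Rps18 and Rpl3l the numbers were 35 and 31. The closest to Rps2 were Rnps1-ps (r = -0.95, chromosome 6) and Rnps1 (0.95, chromosome 17), and the closest to Rps18 was H2-Eb1 (0.92, chromosome 17). For Rpl29, 11 of 50 lay on its chromosome 9 (5.4% of tested genes), led by Lrrc2 (0.90). For Rps4l, 8 of 50 lay on chromosome 6 (4.97%), and for Rpl35a, 5 of 50 on chromosome 16 (3%). For Rpl8, an even member, 2 of 50 lay on its chromosome 15 (3.84%). These genes were chosen after their values were seen, and no test was made.

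Of 390 pairs of a ribosomal protein gene and a copy of at least 1 CPM, 161 had r below 0 and 229 above 0, with a median of 0.11 and a range from -0.93 (Rps2-ps10) to 0.83. Among the lowest, chosen for their values, Rps18-ps6, which shares 56.8% of the 50-base words of Rps18, had r = -0.78 with it. Rps18-ps5, which shares 66.3%, had r = 0.08, and Gm10243, which shares 49.8% with Rpl35a, had r = -0.75. Summed with 3 detected copies, Rps18 had a pooled SD of 0.21 in place of 0.32, and Rpl35a with 1 copy had 0.46 in place of 0.50.

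Sums of marker genes for other cell types in cKO males and cKO females were 774 ± 85.3 and 703 ± 80.5 CPM for fibroblasts, 828 ± 97.5 and 834 ± 135 for endothelium, 106 ± 15.2 and 92.1 ± 15.5 for macrophages, and 838 ± 102 and 820 ± 79.6 for smooth muscle and pericytes (SD, n = 7 each). The markers of a list did not all move with its sum. Among fibroblast markers, Dcn (539 and 481) and Col1a1 (126 and 96.3) were higher in cKO males. Lum (61.2 and 74.0), Pdgfra (39.6 and 42.3) and Tcf21 (8.23 and 8.77) were lower there. In the smooth muscle and pericyte list, Rgs5 (642 and 600) alone was higher in cKO males. Erythroid markers were at 1014 ± 527 and 991 ± 181, and the 5 atrial markers at 493 ± 222 and 518 ± 217 (218 ± 106 in Ctrl males and 301 ± 135 in Ctrl females). Nppa, known also as a stress gene of the ventricle, made up nearly all of that sum, averaging 491 in cKO males and 516 in cKO females, while Myl4 averaged at most 1.58 in a group. The lymphocyte, Schwann and adipocyte sums were at most 13.0 CPM in any mouse.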
